A study of Mus musculus with 12 samples.

Results

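Cybb, Cyba, Ncf1, Ncf4, Rac2, Nos2, Nfe2l2, Keap1 and Hmox1 make reactive oxygen and nitrogen species in macrophages or answer them, and their mRNA was followed in bone marrow-derived macrophages (BMMs) on the way to the osteoclast. The genes were taken by symbol, and 9 of 9 were found among the 24421 genes listed for each sample. Their levels are given in CPM, the reads of a gene per 1000000 reads counted on genes.

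Phagocytes reduce oxygen to superoxide with the NADPH oxidase NOX2, a membrane core of gp91phox and p22phox that becomes active when cytosolic subunits, p47phox and p40phox among them, and a Rac GTPase join it. Inducible nitric oxide synthase makes nitric oxide from arginine. The transcription factor Nrf2 turns on antioxidant and detoxifying genes through the antioxidant response element, while Keap1 holds it for degradation until electrophiles or oxidants modify Keap1. RANKL, the cytokine that drives macrophages to become bone-resorbing osteoclasts, is known to use reactive oxygen species in its signalling.

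Bone marrow cells of mice given as C57BL/6 were cultured with M-CSF for 3 days, and part of the BMMs then received RANKL for 5 days. The study names this background with the LysMcre line. The loss of function experiment compared WT (Mir182+/+ LysMcre(+)) with Mir182ΔM/ΔM (Mir182flox/flox LysMcre(+)) BMMs, basal and after RANKL, and asked which genes depend on miR-182 during osteoclastogenesis. The gain of function experiment compared basal Control (LysMcre(+)) with basal Mir182mTg BMMs, in which Cre opens a Mir182 transgene placed at Rosa26. All mice, controls included, thus carried LysMcre, which is driven by the lysozyme M promoter and therefore acts in myeloid cells. The 6 conditions had 2 replicates each, 12 libraries in all. The study calls the replicates biological, and the labels do not tie them to animals. Ages were not given in the sources used here. BMMs were a bulk population, so fewer cells of a type and less RNA per cell cannot be told apart.

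The libraries held 24951280 to 33050619 reads, and 3 reads correspond to 0.0908 to 0.120 CPM. The Mir182 row checked the transgene but not the deletion. It had 79 and 123 reads (2.39 and 4.40 CPM) in the Mir182mTg libraries, 1 read in a Mir182ΔM/ΔM basal library and 0 in the other 9, WT included. The WT RANKL libraries stood apart from the rest of their experiment in genes of the mouse's background. Lyz2, the locus that carries LysMcre, was at 4117 to 4288 CPM there, against 22.5 to 43.96 CPM in the other 6 loss of function libraries and 5783 to 7062 CPM in the gain of function libraries. Ifi202b was at 0.972 to 1.12 CPM in the WT RANKL libraries, at 82.1 to 152 CPM in the other 6 and at 0 to 0.0908 CPM in the gain of function libraries. RANKL and the origin of the cells therefore cannot be told apart in WT, and every comparison with WT RANKL below carries this limit. No value without these libraries exists for the RANKL response of WT, the genotypes after RANKL or the interaction.

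The cells showed the markers of their label. The summed level of 8 macrophage markers was 5807 to 8783 CPM over the 12 libraries. That of 8 osteoclast markers was 39.7 to 74.9 CPM in the basal libraries, 9938 to 10274 CPM in WT and 3070 to 3079 CPM in Mir182ΔM/ΔM after RANKL. Neutrophils also use NOX2, and 10 neutrophil and precursor markers summed to 101 to 160 CPM in basal libraries, 27.1 to 29.9 CPM in WT RANKL and 11.43 to 11.45 CPM in Mir182ΔM/ΔM RANKL. Retnlg had under 3 reads in each library of WT RANKL and Mir182ΔM/ΔM RANKL, and Elane had at most 3 reads in those of Mir182ΔM/ΔM RANKL. The part of these shifts in the results was not tested. Markers of mast cells, B cells, T cells and erythroid cells summed to at most 0.306 CPM in any library, those of dendritic cells to 1.05 to 3.35 CPM and those of stromal cells to 1.45 to 36.7 CPM.

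Of the 9 genes, only Cybb held TGCCAAA or TTGCCAA, the matches for miR-182-5p that were searched, in an annotated 3′ UTR. The shorter match to bases 2 to 7 alone was not searched. The mature miRNA is shown first with its seed, bases 2 to 8, in capitals. It is encoded at chr6:30165962-30165986 on the minus strand of GRCm38.p6, the build also called mm10. The line after it shows the stretch of the Cybb 3′ UTR with the match to bases 2 to 7 followed by A in capitals, at chrX:9438178-9438184, minus strand, 33 bases into a 3′ UTR of 2965 bases.
miR-182-5p: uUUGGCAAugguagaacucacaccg
Cybb 3′ UTR: ccagtgtatgcTGCCAAAtgtcccagtaa
TGCCAAA occurs in the 3′ UTR of 12.5% of 20998 genes. TTGCCAA, the match to the whole seed, occurs in 11.4% of them and in 0 of the 9. A match is a description of the letters and no evidence that the miRNA acts there.

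The RefSeq promoter table (GRCm38.p6, 250 bases before to 50 after the start) had an entry for 5 of the 9 genes: Cyba, Cybb, Keap1, Ncf1 and Nfe2l2. The promoters of Cybb and Ncf1 are printed because, as seen after their values were known, these genes went the same way in each comparison in which both were called. In the fits without the replicate block this also held for other pairs, such as Cybb with Keap1 and Ncf1 with Nfe2l2. The choice therefore ties no motif to a pattern of levels. Capitals mark the motifs found on either strand. Cybb, at chrX:9469275-9469574 on the minus strand, held GAAANNGAA, the core of the interferon-stimulated response element, at 3 places, and GAGGAA, the core bound by the myeloid factor PU.1, at 1 place.
Cybb promoter: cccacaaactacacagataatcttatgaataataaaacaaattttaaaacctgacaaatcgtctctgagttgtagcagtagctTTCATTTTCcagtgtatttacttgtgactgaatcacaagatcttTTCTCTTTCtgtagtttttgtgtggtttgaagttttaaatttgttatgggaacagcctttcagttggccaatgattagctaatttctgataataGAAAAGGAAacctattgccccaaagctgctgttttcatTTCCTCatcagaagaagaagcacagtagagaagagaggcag
Ncf1, at chr5:134229576-134229875 on the minus strand, held TTCNNNGAA, the GAS motif bound by STAT factors, overlapping 1 match to GAAANNGAA, and GGGNNTTCC, a form of the NF-kB motif.
Ncf1 promoter: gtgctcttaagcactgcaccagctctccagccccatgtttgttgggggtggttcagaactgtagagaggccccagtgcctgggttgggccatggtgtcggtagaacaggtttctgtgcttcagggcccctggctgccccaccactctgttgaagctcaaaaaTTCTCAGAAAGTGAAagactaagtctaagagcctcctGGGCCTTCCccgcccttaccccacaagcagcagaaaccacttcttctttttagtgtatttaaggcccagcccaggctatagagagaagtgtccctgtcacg
Nfe2l2 held TGACNNNGC, the core of the antioxidant response element, as TGACTCCGC, 240 bases before its start. None of the 5 motifs searched was in the windows of Cyba and Keap1. Over all 32851 promoters of the table, GAAANNGAA was in 8.56%, GAGGAA in 28.3%, TTCNNNGAA in 8.30%, GGGNNTTCC in 5.82% and TGACNNNGC in 12.4%.

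**Figure D1:**
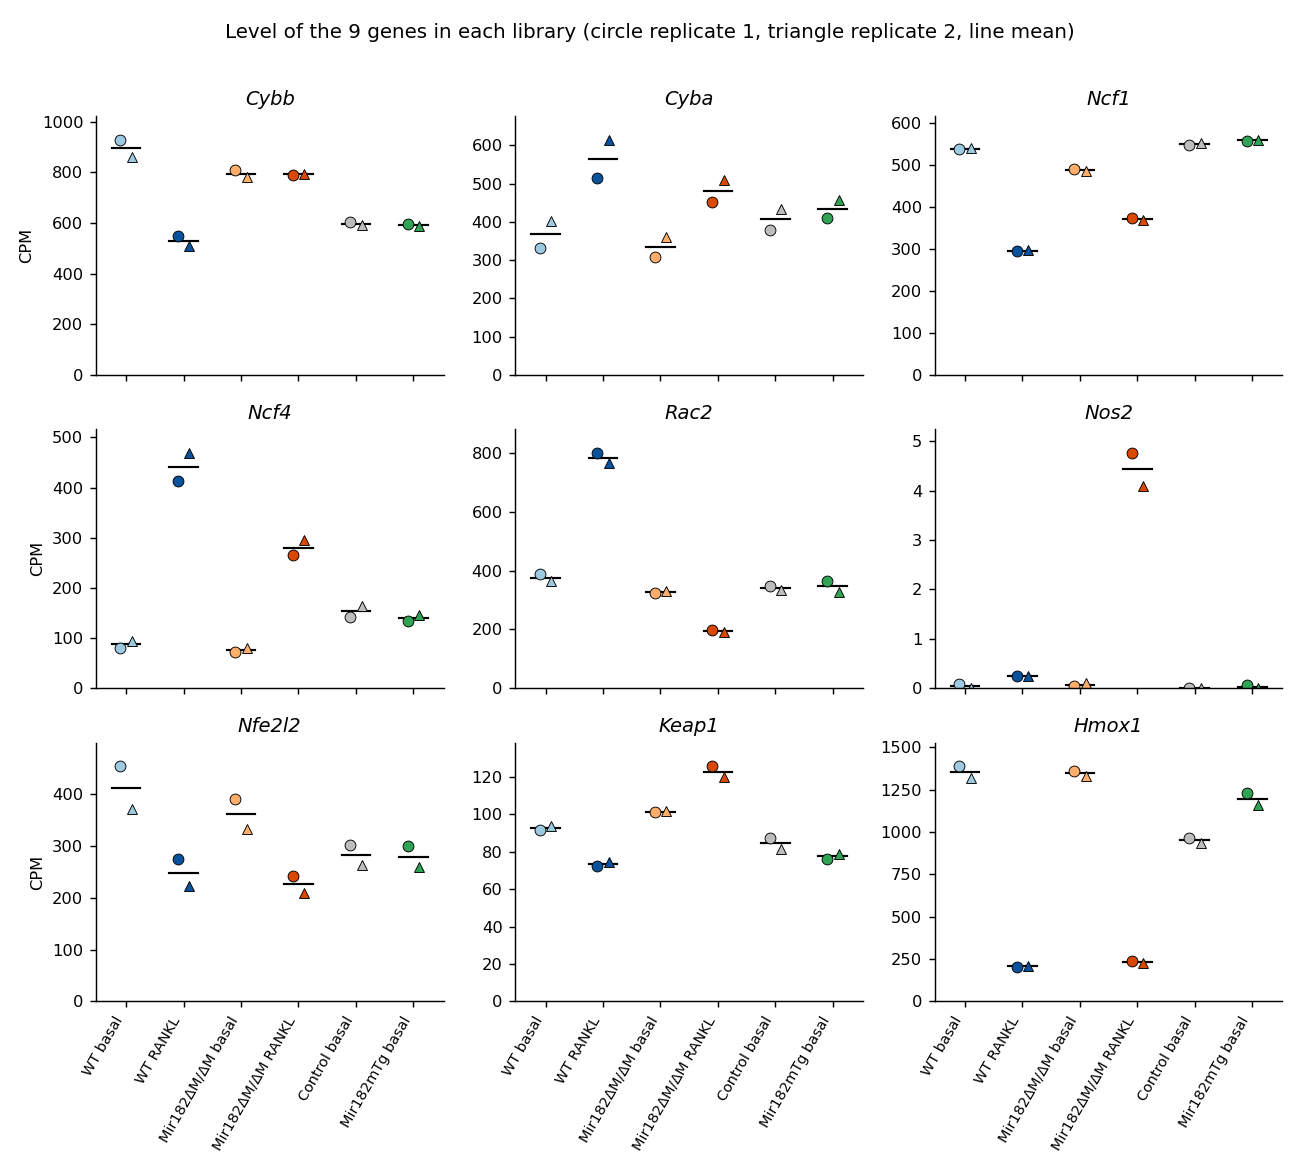
CPM of the 9 genes in each of the 12 libraries, with 1 panel per gene, its own vertical axis starting at 0, circles for replicate 1, triangles for replicate 2 and a line at the mean of the condition. Nos2 was at 4.09 and 4.76 CPM in Mir182ΔM/ΔM BMMs after RANKL and at 0.252 CPM or less in the other 10 libraries, and Hmox1 was at 1317 CPM or more in the basal and at 238 CPM or less in the RANKL libraries of the loss of function experiment.

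Per length, Hmox1 was the most abundant of the 9 mRNAs in WT basal BMMs, with 882 RPKM (reads per kilobase of transcript and 1000000 reads) in replicate 1. Cyba followed with 438 RPKM, then Cybb with 196, Nfe2l2 with 184, Ncf1 with 181, Rac2 with 128, Ncf4 with 54.9 and Keap1 with 20.5 RPKM. Nos2 had 0.0230 RPKM. Over the 12 libraries Hmox1 spanned 6.73-fold, Ncf4 6.46-fold and Rac2 4.21-fold, whereas Cybb, Cyba, Ncf1, Nfe2l2 and Keap1 spanned 1.74-fold to 2.17-fold.

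Between basal and RANKL libraries, 8 of the 9 genes changed in each genotype, with the limit on the WT RANKL libraries given above. A change is a difference in log2(CPM + 1) with an adjusted p under 0.05 over 11673 genes. In WT, 3 rose (Cyba, Ncf4 and Rac2) and 5 fell (Cybb, Ncf1, Nfe2l2, Keap1 and Hmox1), and of all genes tested 40.6% rose and 22.0% fell. In Mir182ΔM/ΔM, 4 rose (Cyba, Ncf4, Nos2 and Keap1) and 4 fell (Ncf1, Rac2, Nfe2l2 and Hmox1), against 30.5% and 26.3% of all genes. Nos2 entered the test only through the Mir182ΔM/ΔM RANKL libraries, where it is high, so its place in this count and in those for the genotypes after RANKL and the interaction follows in part from the filter and supports nothing. Most genes moved with RANKL, so a change of a single member is a common event here. These counts in Mir182ΔM/ΔM were the same when the WT RANKL libraries were left out, an alternative added after the data were seen. With another scaling (TMM factors) the median of all genes shifted by −0.19 in WT and by −0.04 in Mir182ΔM/ΔM on the log2 scale, and the genes called in WT split into 3336 higher and 3562 lower in place of 4738 and 2566. Those called in Mir182ΔM/ΔM split into 3275 higher and 3403 lower in place of 3555 and 3074. The direction of every called member held. Without Mir182ΔM/ΔM RANKL replicate 2, the count that rose in Mir182ΔM/ΔM went from 4 to 2, since Cyba missed the threshold and Nos2 no longer entered the test.

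Between the genotypes, 0 of the 9 genes differed at baseline, where limma called 2.72% of genes higher and 1.11% lower, and 3 of the 9 had an unadjusted p under 0.05 (Cybb, Ncf1 and Rac2), as did 16.3% of all genes. Tests on the recovered reads with edgeR and DESeq2 called 0 as well. With the replicate number as a block, 1 of the 9 (Keap1) was higher and 6 (Cybb, Cyba, Ncf1, Ncf4, Rac2 and Nfe2l2) were lower in Mir182ΔM/ΔM, against 18.6% and 12.7% of all genes. After RANKL, 4 (Cybb, Ncf1, Nos2 and Keap1) were higher and 2 (Ncf4 and Rac2) were lower in Mir182ΔM/ΔM, against 14.3% and 30.9% of all genes. The block added Hmox1 to the former and Cyba and Nfe2l2 to the latter, with 23.4% and 49.8% of all genes called. TMM factors shifted the median of all genes by 0.14 in this comparison, and the calls split into 2403 higher and 2389 lower in place of 1666 and 3609. In the interaction, the difference of the RANKL response in Mir182ΔM/ΔM from that in WT, Cybb, Ncf1, Nos2 and Keap1 were positive and Rac2 was negative, against 7.46% and 17.2% of all genes. Of these, edgeR on the recovered reads did not call Nos2 (adjusted p = 0.097). The block added Hmox1 and Ncf4, against 16.1% and 42.8%. TMM factors shifted the median interaction by 0.15 and gave 1224 positive and 1284 negative calls in place of 871 and 2004.

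The groups did not overlap in CPM for 9 of the 9 genes for RANKL in WT, 8 for RANKL in Mir182ΔM/ΔM, 4 for the genotypes at baseline and 8 for the genotypes after RANKL. Over all genes tested these shares were 79.6%, 78.0%, 41.1% and 71.6%.

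**Figure D2:**
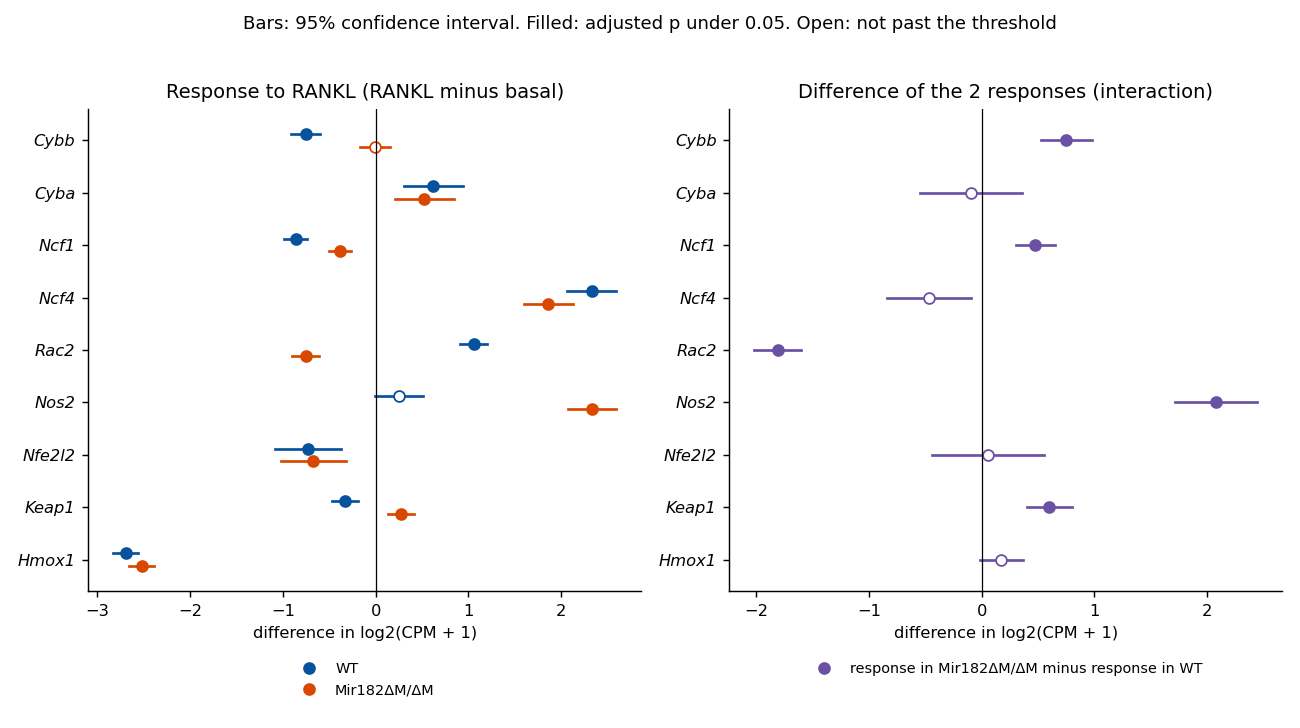
Left, difference in log2(CPM + 1) between RANKL and basal BMMs for each of the 9 genes in WT (blue) and Mir182ΔM/ΔM (orange), and right, the difference of these responses. Points are limma estimates, bars are 95% confidence intervals, and filled points passed the threshold on the adjusted p. Rac2 and Keap1 lie on opposite sides of 0 in the genotypes, and Cybb lies at 0 in Mir182ΔM/ΔM.

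The membrane core of NOX2 moved in opposite directions in WT. Cybb (chrX:9435252-9487771, minus strand) encodes gp91phox, the subunit that carries the electrons. It was at 929 and 861 CPM in WT basal, 550.2 and 509 CPM in WT RANKL, 811 and 781 CPM in Mir182ΔM/ΔM basal and 791 and 795 CPM in Mir182ΔM/ΔM RANKL BMMs. Of these conditions only WT RANKL was low, and the Mir182ΔM/ΔM libraries with and without RANKL overlapped. Without RANKL, Cybb was also low in the gain of function libraries, at 603 and 591 CPM in Control and 595 and 587 CPM in Mir182mTg. The level fell by 1.69-fold in WT (log2 change −0.76 ± 0.07, SE; adjusted p = 6.7e-05), and its log2 change in Mir182ΔM/ΔM was −0.00, with a 95% interval from −0.17 to 0.16. The interaction was 0.75 ± 0.10 (adjusted p = 0.0016), and after RANKL Cybb was higher in Mir182ΔM/ΔM than in WT (log2 difference 0.58 ± 0.07; adjusted p = 0.00049). The log2 difference at baseline was −0.17 ± 0.07 (adjusted p = 0.28, and 0.00021 with the replicate block).

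Cyba (chr8:122424776-122432930, minus strand) encodes p22phox, the partner that stabilises gp91phox. Its levels were 332 and 403 CPM in WT basal, 515 and 615 CPM in WT RANKL, 308 and 359 CPM in Mir182ΔM/ΔM basal and 451 and 509 CPM in Mir182ΔM/ΔM RANKL BMMs. Replicate 2 was higher than replicate 1 in each condition, and the RANKL libraries lay above the basal ones in both genotypes. It rose by 1.54-fold in WT (log2 change 0.62 ± 0.14; adjusted p = 0.0057) and by 1.44-fold in Mir182ΔM/ΔM (0.52 ± 0.14; adjusted p = 0.013). The call in Mir182ΔM/ΔM was lost without Mir182ΔM/ΔM basal replicate 1 or without Mir182ΔM/ΔM RANKL replicate 2 (adjusted p = 0.080 each). The interaction was −0.10 with a 95% interval from −0.55 to 0.36, and it turned to 0.07 with TMM factors. After RANKL, the log2 difference between the genotypes was −0.23 ± 0.14 (adjusted p = 0.20, and 7.4e-07 with the block).

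The cytosolic subunits also diverged. Ncf1 (chr5:134220053-134229625, minus strand) encodes p47phox, the organiser that brings the cytosolic complex to the membrane. It was at 538 and 540.2 CPM in WT basal, 295 and 297 CPM in WT RANKL, 489.8 and 485 CPM in Mir182ΔM/ΔM basal and 375 and 370.2 CPM in Mir182ΔM/ΔM RANKL BMMs. None of these ranges overlapped, and the SD of the replicates was at most 3.61 CPM. Ncf1 fell by 1.82-fold in WT (log2 change −0.86 ± 0.05; adjusted p = 8.8e-06) and by 1.31-fold in Mir182ΔM/ΔM (−0.39 ± 0.05; adjusted p = 0.00059). The responses differed by 0.48 ± 0.07 (adjusted p = 0.0035), and after RANKL Ncf1 was 1.26-fold higher in Mir182ΔM/ΔM (adjusted p = 0.0019).

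Ncf4 (chr15:78244801-78262580, plus strand) encodes p40phox, which binds phosphatidylinositol 3-phosphate on phagosomes. It was at 79.8 and 94.7 CPM in WT basal, 414 and 469 CPM in WT RANKL, 72.6 and 80.2 CPM in Mir182ΔM/ΔM basal and 265 and 296 CPM in Mir182ΔM/ΔM RANKL BMMs. It was higher with RANKL in both genotypes, by 5.06-fold in WT (log2 change 2.33 ± 0.11; adjusted p = 3e-06) and by 3.67-fold in Mir182ΔM/ΔM (1.86 ± 0.11; adjusted p = 1.1e-05). Ncf4 had the largest rise of the 9 genes in WT. After RANKL it was 1.57-fold lower in Mir182ΔM/ΔM (log2 difference −0.65 ± 0.11; adjusted p = 0.003). The interaction of −0.47 ± 0.16 missed the threshold (adjusted p = 0.075), and passed it with the block (5.7e-08) and without WT basal replicate 2 (0.045).

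Rac2 turned in opposite directions in the genotypes. The gene (chr15:78559167-78572783, minus strand) encodes the Rac GTPase of blood cells that activates NOX2. It was at 388 and 364 CPM in WT basal, 802 and 766 CPM in WT RANKL, 324 and 332 CPM in Mir182ΔM/ΔM basal and 198 and 190.4 CPM in Mir182ΔM/ΔM RANKL BMMs. The WT RANKL libraries were the highest and the Mir182ΔM/ΔM RANKL libraries the lowest of all 12. Rac2 rose by 2.09-fold in WT (log2 change 1.06 ± 0.06; adjusted p = 7.8e-06) and fell by 1.69-fold in Mir182ΔM/ΔM (−0.75 ± 0.06; adjusted p = 5e-05). The interaction was −1.81 ± 0.09 (adjusted p = 3.9e-05), and after RANKL Rac2 was 4.04-fold lower in Mir182ΔM/ΔM (log2 difference −2.01 ± 0.06; adjusted p = 1.4e-06). The fall in Mir182ΔM/ΔM was also called with the WT RANKL libraries left out (adjusted p = 0.00018). Its relative Rac1, the GTPase found in all cells, was at 423 to 501 CPM in the 8 loss of function libraries, was called lower with RANKL in Mir182ΔM/ΔM (log2 change −0.21 ± 0.06; adjusted p = 0.014), and had an interaction of −0.07 ± 0.08 (adjusted p = 0.59).

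Counts for the gene lists are to be read against the shares or numbers of all genes called in the same comparison and fit, where given with the counts of the 9 genes. No such value is given for RANKL against basal with the replicate block, or for edgeR and DESeq2 on the recovered reads. Those counts have no background here. Of 14 partners of the oxidase and other NADPH oxidases, 7 were tested. In WT 2 rose and 2 fell with RANKL, with a median log2 change of −0.14 against 0.19 for all genes, and 4 fell with the replicate block. In Mir182ΔM/ΔM 2 rose and 4 fell, with a median of −0.52 against 0.05. Hvcn1, the proton channel that balances the charge moved by the oxidase, fell in WT (log2 change −0.64 ± 0.08; adjusted p = 0.00034) and in Mir182ΔM/ΔM (−0.85 ± 0.08; adjusted p = 9.1e-05). Rap1a, a small GTPase found with the oxidase, rose from 64.99 to 95.6 CPM in WT (adjusted p = 0.00019) and from 65.6 to 79.9 CPM in Mir182ΔM/ΔM (adjusted p = 0.0061). Nox1, the catalytic subunit of another NADPH oxidase, was low throughout, with 3.71 and 4.05 CPM in Mir182ΔM/ΔM RANKL, 1.16 and 1.30 CPM in WT RANKL and at most 0.0373 CPM in the 4 basal libraries of the loss of function experiment, and is named after its values were seen. After RANKL 1 was higher and 4 were lower in Mir182ΔM/ΔM, and 1 and 2 with TMM factors. Nox1 entered the test only through the RANKL libraries, where it is high. Its place in the counts of this list therefore follows in part from the filter and supports nothing.

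Nos2 was detected almost only in Mir182ΔM/ΔM BMMs after RANKL. The gene (chr11:78920787-78960254, plus strand) encodes inducible nitric oxide synthase. It was at 4.76 and 4.09 CPM there, from 145 and 104 reads. WT RANKL libraries had 6 and 7 reads (0.239 and 0.252 CPM), and the basal libraries of both experiments had 0 to 3 reads each (at most 0.112 CPM). The Mir182ΔM/ΔM RANKL libraries were therefore far above the rest, at a level that was still low next to the other 8 genes. Nos2 entered the test only through these libraries, so its calls there follow in part from the filter. The difference in log2(CPM + 1) between RANKL and basal was 2.33 ± 0.11 in Mir182ΔM/ΔM (adjusted p = 3.6e-06) and 0.25 ± 0.11 in WT (adjusted p = 0.079). After RANKL the CPM was 18.02 times that of WT (adjusted p = 1.1e-05). The interaction was 2.08 ± 0.15 (adjusted p = 0.00017), and edgeR on the recovered reads did not call it (adjusted p = 0.097).

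Genes around nitric oxide synthesis and arginine use were called more often in Mir182ΔM/ΔM, a difference that was not tested as such. Of 12 listed, 8 were tested, of which 1 rose (3 with the replicate block) and 2 fell in WT and 5 rose and 2 fell in Mir182ΔM/ΔM. Those that rose in Mir182ΔM/ΔM were Slc7a2, Gch1, Spr, Arg1 and Nosip, named in full after the values were seen. Their median log2 change was −0.04 in WT and 0.42 in Mir182ΔM/ΔM, against 0.19 and 0.05 for all genes. Slc7a2, an arginine transporter, was at 4.83 and 4.57 CPM in WT basal, 1.12 and 2.12 CPM in WT RANKL, 5.44 and 6.23 CPM in Mir182ΔM/ΔM basal and 10.48 and 10.94 CPM in Mir182ΔM/ΔM RANKL BMMs. Its interaction was 1.93 ± 0.25 (adjusted p = 0.0018). Gch1, the first enzyme of the synthesis of tetrahydrobiopterin, the cofactor of nitric oxide synthase, was at 18.2 and 22.2 CPM in WT RANKL and at 36.7 and 43.5 CPM in Mir182ΔM/ΔM RANKL BMMs (adjusted p = 0.00081). Gchfr, which restrains that enzyme, fell in WT from 7.33 to 0.116 CPM (log2 change −2.90 ± 0.16; adjusted p = 5.6e-06) and in Mir182ΔM/ΔM from 5.34 to 0.827 CPM (−1.77 ± 0.16; adjusted p = 7.7e-05). Spr, the enzyme of the last step to the cofactor, rose from 16.2 to 34.7 CPM in WT (adjusted p = 0.00014) and from 18.8 to 27.5 CPM in Mir182ΔM/ΔM (adjusted p = 0.0049). Asl, argininosuccinate lyase, which remakes arginine, fell in Mir182ΔM/ΔM from 47.1 to 28.7 CPM (adjusted p = 0.012). After RANKL 4 of the 8 were higher and 2 lower in Mir182ΔM/ΔM than in WT, 4 and 0 with TMM factors, and 4 and 3 with the block. At baseline limma, edgeR and DESeq2 called 0 of the 8, with 3 at an unadjusted p under 0.05 in limma. With the replicate block 3 were higher and 1 was lower.

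Nfe2l2 and Keap1, the pair at the head of the antioxidant response, fell together in WT and went opposite ways in Mir182ΔM/ΔM. Nfe2l2 (chr2:75675513-75704641, minus strand) encodes Nrf2. It was at 454 and 371 CPM in WT basal, 275 and 222 CPM in WT RANKL, 389 and 332 CPM in Mir182ΔM/ΔM basal and 242 and 209 CPM in Mir182ΔM/ΔM RANKL BMMs. Replicate 1 was above replicate 2 in every condition, and the RANKL libraries lay below the basal ones. It fell by 1.66-fold in WT (log2 change −0.73 ± 0.15; adjusted p = 0.0041) and by 1.60-fold in Mir182ΔM/ΔM (−0.67 ± 0.15; adjusted p = 0.0068). The interaction was 0.06 with a 95% interval from −0.44 to 0.55. The genotypes after RANKL differed by −0.13 (adjusted p = 0.50, and 0.0007 with the block), which turned to 0.01 with TMM factors.

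Keap1 (chr9:21229730-21239361, minus strand) encodes the adaptor that presents Nrf2 to a ubiquitin ligase. It was at 91.5 and 93.5 CPM in WT basal, 72.4 and 74.6 CPM in WT RANKL, 101 and 101 CPM in Mir182ΔM/ΔM basal and 126 and 119.8 CPM in Mir182ΔM/ΔM RANKL BMMs. None of these ranges overlapped. Keap1 fell by 1.26-fold in WT (log2 change −0.33 ± 0.06; adjusted p = 0.0024) and rose by 1.21-fold in Mir182ΔM/ΔM (0.27 ± 0.06; adjusted p = 0.0065), an interaction of 0.60 ± 0.08 (adjusted p = 0.0024). After RANKL it was 1.67-fold higher in Mir182ΔM/ΔM (adjusted p = 9e-05), and the log2 difference at baseline was 0.13 ± 0.06 (adjusted p = 0.35, and 0.015 with the block).

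All 12 listed regulators and partners of Nrf2 were tested. With RANKL 2 rose and 4 fell in WT (median log2 change 0.01 against 0.19), and 3 rose and 3 fell in Mir182ΔM/ΔM (0.16 against 0.05). With the replicate block 4 rose in WT and 7 in Mir182ΔM/ΔM, counts with no share of all genes to be read against. Bach2, a repressor at Maf recognition elements, rose from 2.60 and 2.36 CPM to 10.02 and 8.82 CPM in WT, and was at 1.74 to 2.13 CPM in the 4 Mir182ΔM/ΔM libraries. The interaction of Bach2 was −1.64 ± 0.16 (adjusted p = 0.00046). Among the small Maf partners, Maff rose in WT from 1.59 to 6.25 CPM (adjusted p = 1.1e-05) and in Mir182ΔM/ΔM from 1.43 to 2.86 CPM (adjusted p = 0.00077). After RANKL it was lower in Mir182ΔM/ΔM than in WT (adjusted p = 0.00027). Mafk was higher in Mir182ΔM/ΔM after RANKL (40.8 CPM against 25.9 CPM; adjusted p = 0.0005), and Mafg fell in both genotypes (adjusted p = 0.008 in WT and 0.00048 in Mir182ΔM/ΔM). After RANKL 2 of the 12 were higher and 4 lower in Mir182ΔM/ΔM, 3 and 3 with TMM factors, and 3 and 6 with the block. Sqstm1, which encodes p62, a protein that draws Keap1 into autophagy, fell with RANKL in both genotypes and was the only gene of the list to differ at baseline, with 652 CPM in Mir182ΔM/ΔM and 785 CPM in WT (adjusted p = 0.042). With the WT RANKL libraries left out, limma called 0 of the list at baseline, and with the replicate block 3 were lower. Bach1, a heme-binding repressor of Hmox1, rose from 150.05 to 182 CPM in Mir182ΔM/ΔM (adjusted p = 0.0073), and Nfe2l1, a relative of Nfe2l2, was 336 CPM in Mir182ΔM/ΔM and 259.6 CPM in WT after RANKL (adjusted p = 0.01).

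Hmox1 had the largest fall of the 9 genes. The gene (chr8:75093621-75100589, plus strand) encodes heme oxygenase 1, which splits heme into biliverdin, iron and carbon monoxide. It was at 1389.95 and 1317 CPM in WT basal, 206 and 209.9 CPM in WT RANKL, 1359.9 and 1334 CPM in Mir182ΔM/ΔM basal and 238 and 229.9 CPM in Mir182ΔM/ΔM RANKL BMMs. The basal libraries of the genotypes overlapped, and all 4 RANKL libraries were far below them. Hmox1 fell by 6.50-fold in WT (log2 change −2.69 ± 0.06; adjusted p = 1.3e-07) and by 5.76-fold in Mir182ΔM/ΔM (−2.52 ± 0.06; adjusted p = 2.3e-07). After RANKL the log2 difference of 0.17 ± 0.06 between the genotypes missed the threshold (adjusted p = 0.051) and passed it with the block (3.6e-05) and with TMM factors (0.0036). The interaction was 0.17 ± 0.08 (adjusted p = 0.17, 0.0013 with the block and 0.022 with TMM factors).

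Heme and iron genes fell with Hmox1. Of 10 listed, 9 were tested, and 7 fell and 1 rose in WT (median log2 change −0.81 against 0.19), and 6 fell and 1 rose in Mir182ΔM/ΔM (−0.64 against 0.05). Slc40a1, ferroportin, the iron exporter, fell from 562 and 621 CPM to 38.2 and 40.7 CPM in WT (log2 change −3.87 ± 0.13; adjusted p = 5.4e-07) and from 422 and 463 CPM to 18.6 and 24.4 CPM in Mir182ΔM/ΔM (−4.32 ± 0.13; adjusted p = 5.1e-07). Fth1, the ferritin heavy chain, fell from 11259 and 10031 CPM to 2777 and 2466 CPM in WT and from 11414 and 10061 CPM to 3570.5 and 2955 CPM in Mir182ΔM/ΔM. Fth1 has near-identical pseudogene copies, so its counts are uncertain. Alas1, the first enzyme of heme synthesis, was the gene that rose, from 86.7 to 105 CPM in WT (adjusted p = 0.0051) and from 84.9 to 104 CPM in Mir182ΔM/ΔM (adjusted p = 0.0043). With TMM factors 0 of the 9 rose in WT. After RANKL 1 of the 9, Hmox2, the constitutive heme oxygenase, was higher in Mir182ΔM/ΔM (168 against 138 CPM; adjusted p = 0.021), and 1, Slc40a1, was lower (adjusted p = 0.0015), and the block called 2 in each direction. In the interaction limma called 0 of the 9, with 2 at an unadjusted p under 0.05, and edgeR and DESeq2 called 2 positive each. The block called 4 positive and 2 negative. At baseline limma and edgeR called 0, with 2 at an unadjusted p under 0.05 in limma, DESeq2 called 2 lower and the block called 4 lower.

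All 22 listed genes reported as Nrf2 targets were tested, 3 of which (Fth1, Ftl1 and Blvrb) are also on the heme and iron list. In WT 14 fell and 4 rose with RANKL (median log2 change −0.63 against 0.19), and in Mir182ΔM/ΔM 12 fell and 5 rose (−0.36 against 0.05). With TMM factors the counts were 16 and 2 in WT and 13 and 5 in Mir182ΔM/ΔM. Gclm, a subunit of the enzyme that starts glutathione synthesis, fell from 227 to 85.3 CPM in WT (log2 change −1.40 ± 0.07; adjusted p = 4.5e-06). In Mir182ΔM/ΔM it fell from 214 and 208 CPM to 78.2 and 72.7 CPM (−1.47 ± 0.07; adjusted p = 4.9e-06). Gstm1, a glutathione transferase, fell from 176 to 53.5 CPM in WT (−1.70 ± 0.10; adjusted p = 9.6e-06) and from 146 to 59.2 CPM in Mir182ΔM/ΔM (−1.29 ± 0.10; adjusted p = 4.4e-05). Nqo1, a quinone reductase often used to read Nrf2 activity, did not follow them. It was at 10.3 and 12.8 CPM in WT basal, 10.5 and 11.4 CPM in WT RANKL, 10.7 and 11.1 CPM in Mir182ΔM/ΔM basal and 21.2 and 24.6 CPM in Mir182ΔM/ΔM RANKL BMMs, with an interaction of 1.07 ± 0.18 (adjusted p = 0.0049). Taldo1, an enzyme of the pentose phosphate pathway, rose in Mir182ΔM/ΔM from 367 and 395 CPM to 651 and 735 CPM, and was at 332 and 365 CPM in WT RANKL (interaction 1.13 ± 0.13; adjusted p = 0.001). Slc7a11, the cystine transporter, rose in WT from 2.53 to 5.78 CPM (adjusted p = 0.0017) and was at 2.56 CPM in Mir182ΔM/ΔM RANKL (interaction −0.78 ± 0.23; adjusted p = 0.044). Gsr, glutathione reductase, rose in WT from 132 to 179.8 CPM (adjusted p = 0.00075), was higher in Mir182ΔM/ΔM at baseline (173 CPM; adjusted p = 0.024) and was lower there after RANKL (145 CPM; adjusted p = 0.0065). After RANKL 6 of the 22 were higher and 2 lower in Mir182ΔM/ΔM, 11 and 1 with TMM factors, and 11 and 4 with the block. At baseline Gsr was the only gene limma called, and with the block 1 was higher and 11 were lower, where 18.6% and 12.7% of all genes were called.

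**Figure D3:**
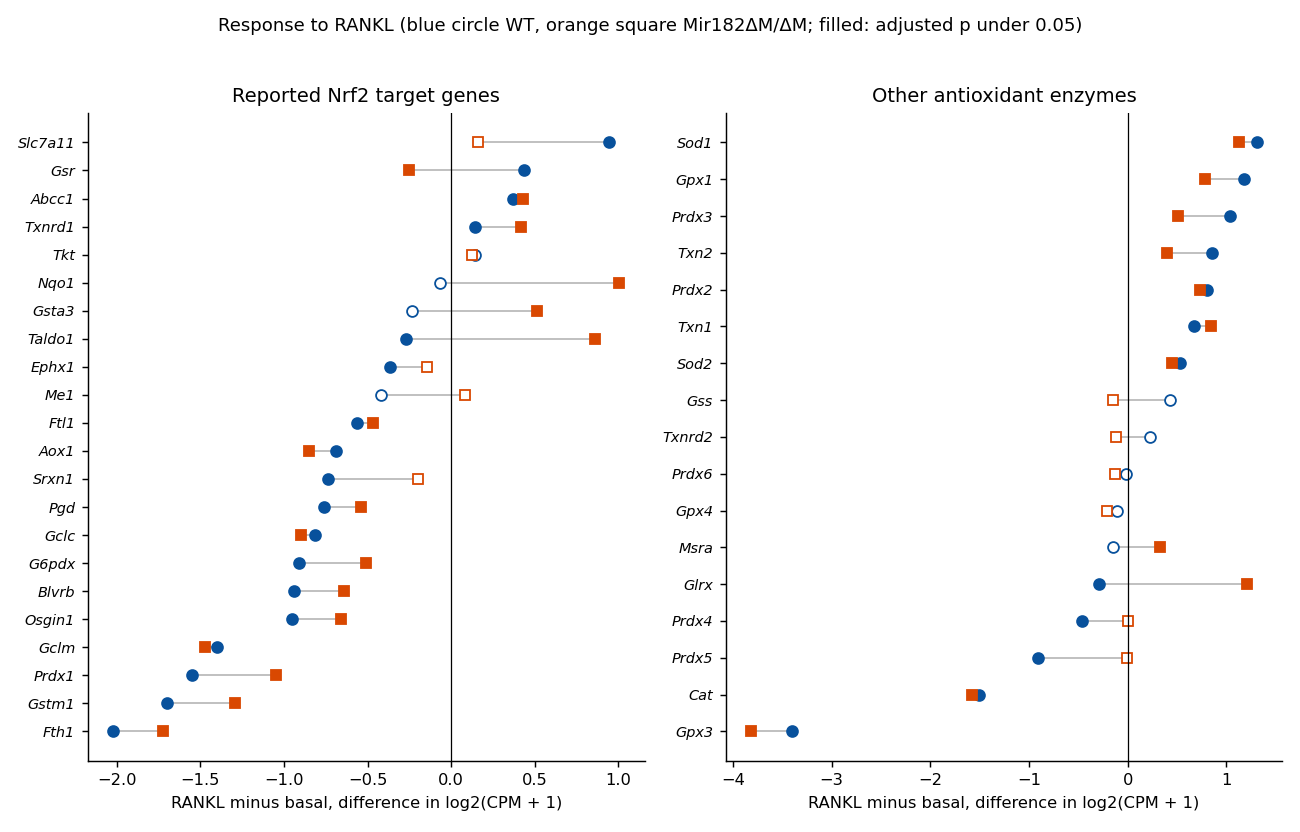
Difference in log2(CPM + 1) between RANKL and basal BMMs for the 22 reported Nrf2 targets (left) and 17 other antioxidant enzymes (right), sorted by the value in WT, with blue circles for WT, orange squares for Mir182ΔM/ΔM, a grey line joining the values of a gene and filled symbols for an adjusted p under 0.05. In WT 14 targets fell and 4 rose, and Nqo1 and Taldo1 are among those that lie to the right of 0 in Mir182ΔM/ΔM but not in WT.

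The other antioxidant enzymes moved in both directions. Of 18 listed, 17 were tested. In WT 7 rose and 5 fell with RANKL (median log2 change 0.22 against 0.19), which became 5 and 7 with TMM factors, and in Mir182ΔM/ΔM 9 rose and 2 fell (0.33 against 0.05), which became 7 and 3. With the replicate block 4 fell in Mir182ΔM/ΔM, again with no share of all genes to be read against. Sod1, the cytosolic superoxide dismutase, rose from 94.3 and 94.7 CPM to 229 and 243 CPM in WT (log2 change 1.31 ± 0.06; adjusted p = 3.4e-06) and from 90.9 and 92.4 CPM to 194 and 209 CPM in Mir182ΔM/ΔM (1.13 ± 0.06; adjusted p = 9e-06). Gpx1, the main cytosolic glutathione peroxidase, rose from 429.5 to 970.1 CPM in WT (adjusted p = 4.2e-06) and from 457 to 788 CPM in Mir182ΔM/ΔM (adjusted p = 3.7e-05). Cat, catalase, fell from 1112 and 969.6 CPM to 394 and 339 CPM in WT (adjusted p = 2.5e-05) and from 879 and 793 CPM to 295 and 262 CPM in Mir182ΔM/ΔM (adjusted p = 2.3e-05). Gpx3, a secreted glutathione peroxidase, fell from 45.8 to 3.41 CPM in WT (adjusted p = 3.2e-07) and from 38.6 to 1.81 CPM in Mir182ΔM/ΔM (adjusted p = 2.9e-07). Glrx, glutaredoxin, was higher in Mir182ΔM/ΔM after RANKL, with 36.8 and 42.3 CPM in WT RANKL and 128.4 CPM in each Mir182ΔM/ΔM RANKL library (log2 difference 1.68 ± 0.09; adjusted p = 1.2e-05). Prdx5, a peroxiredoxin, was at 68.4 and 79.5 CPM in WT RANKL and at 123 and 128 CPM in Mir182ΔM/ΔM RANKL (interaction 0.90 ± 0.12; adjusted p = 0.0021). Txn2, mitochondrial thioredoxin, was lower in Mir182ΔM/ΔM after RANKL (142 against 194 CPM; adjusted p = 0.0021), as was Gss, glutathione synthetase (21.7 against 33.8 CPM; adjusted p = 0.02). After RANKL 4 of the 17 were higher and 7 lower in Mir182ΔM/ΔM, 4 and 2 with TMM factors, and 5 and 12 with the block. Of all genes 14.3% were higher and 30.9% lower in this comparison, and 23.4% and 49.8% with the block. At baseline limma, edgeR and DESeq2 called 0, with 3 at an unadjusted p under 0.05 in limma, and the block called 3 higher and 6 lower.

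In Mir182mTg BMMs no member passed the threshold at baseline. Of 8 tested (Nos2 was too low), edgeR's quasi-likelihood test called 0, against 0.0993% of all genes higher and 0.157% lower, and 1 of the 8, Hmox1, had an unadjusted p under 0.05, as did 7.14% of all genes. DESeq2 and limma called 0 too. With the replicate block Cyba and Hmox1 were higher and Ncf4 and Keap1 were lower in Mir182mTg, against 6.94% and 8.15% of all genes. Hmox1 was at 966 and 937 CPM in Control and at 1233 and 1163 CPM in Mir182mTg BMMs. Both Mir182mTg libraries were above both Control libraries, by 1.26-fold (log2 fold change 0.32 ± 0.07; adjusted p = 0.28, and 4.7e-07 with the block). Cybb, which holds TGCCAAA in its 3′ UTR, was at 603 and 591 CPM in Control and at 595 and 587 CPM in Mir182mTg BMMs. Its libraries overlapped, and the log2 fold change was −0.02 with a 95% interval from −0.19 to 0.14 (adjusted p = 1). Keap1 was at 87.5 and 81.7 CPM in Control and at 76.2 and 78.7 CPM in Mir182mTg (log2 fold change −0.14 ± 0.08; adjusted p = 0.93, and 0.031 with the block). Ncf4 was at 143 and 164 CPM in Control and at 134 and 145 CPM in Mir182mTg (−0.15 ± 0.10; adjusted p = 1, and 0.011 with the block). Cyba was at 379 and 434 CPM in Control and at 411 and 459 CPM in Mir182mTg, and passed only with the block (adjusted p = 0.045). Ncf1, Rac2 and Nfe2l2 had log2 fold changes between −0.03 and 0.01 (adjusted p = 1 each). The groups did not overlap for 3 of the 8 genes, Ncf1, Keap1 and Hmox1, against 32.1% of all genes. Of the lists, Gsta3, a glutathione transferase and reported Nrf2 target, was the only gene called, with 9.71 and 9.86 CPM in Control and 19.1 and 19.7 CPM in Mir182mTg (log2 fold change 0.98 ± 0.10; adjusted p = 0.045). In the other 5 lists edgeR, DESeq2 and limma called 0, with 0 or 1 gene a list at an unadjusted p under 0.05. With the block 9 reported Nrf2 targets were higher and 3 lower, 5 heme and iron genes were higher and 1 lower, and in each of the other lists at most 2 were called in either direction.

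**Figure D4:**
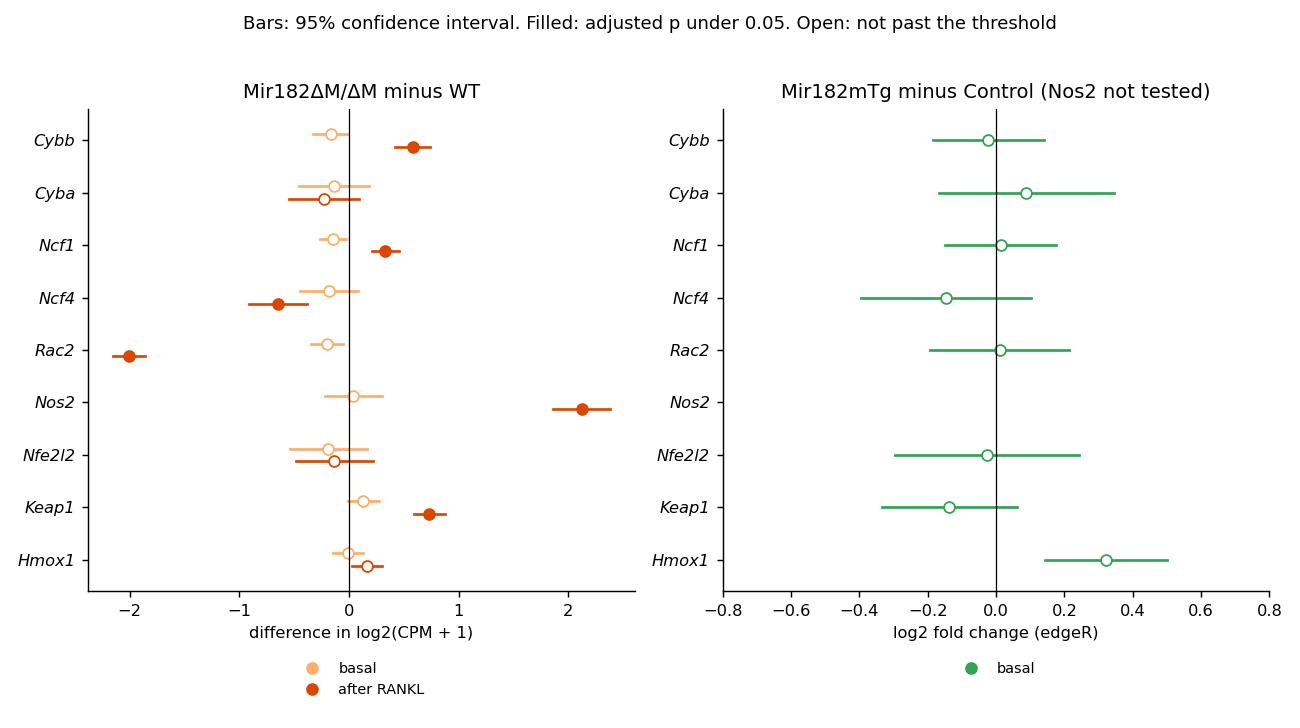
Left, difference in log2(CPM + 1) between Mir182ΔM/ΔM and WT for each gene at baseline (light) and after RANKL (dark), and right, the edgeR log2 fold change between Mir182mTg and Control at baseline for 8 genes, on a narrower axis. Bars are 95% confidence intervals and filled points passed the threshold. At baseline no point is filled in either experiment, whereas 6 are filled after RANKL.

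Control and WT basal BMMs, the untreated controls of the experiments, had ranges that lay apart for 7 of the 9 genes and overlapped for Cyba and Nos2. Over the 11190 genes with 1 CPM or more in 2 or more of these 4 libraries, the ranges lay apart for 73.3%, so the share among the 9 is near the background. Cybb was at 597 ± 8.50 CPM (SD, n = 2) in Control and 895 ± 48.3 CPM in WT basal, Ncf4 at 153 ± 15.0 and 87.3 ± 10.6 CPM, and Hmox1 at 952 ± 20.5 and 1353 ± 51.6 CPM. Ncf1 was at 549.8 ± 2.24 and 539 ± 1.32 CPM. The experiments were not set against each other by a test. Their controls also differed in Lyz2, with 5783 and 6615 CPM in Control and 43.96 and 39.8 CPM in WT basal. Ifi202b was at 0 CPM in Control and at 112 and 93.4 CPM in WT basal. The part of the origin of the cells in these differences was not tested. Over all 6 conditions, Cybb was highest in WT basal and lowest in WT RANKL BMMs, and its neighbours in that order overlapped between Mir182ΔM/ΔM basal and RANKL and between Control and Mir182mTg. Keap1 was highest in Mir182ΔM/ΔM RANKL and lowest in WT RANKL with no overlap between any neighbours. Ncf1 ran from 559 CPM in Mir182mTg to 296 CPM in WT RANKL, again with no overlap. Cyba was highest in WT RANKL, and its other conditions overlapped each with the next. For Ncf4 both RANKL conditions were on top with no overlap, for Hmox1 they were at the bottom with no overlap, and for Nfe2l2 the 4 lowest conditions overlapped each with the next.

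Cysltr1 and Nfatc2 had the patterns closest to Cybb among 10290 genes at 5 CPM or more in at least 1 condition. Closeness is the root mean square difference of the 6 condition means of log2(CPM + 1), each centred on its own mean, and was 0.08 for Cysltr1 and 0.09 for Nfatc2. Nupr1 and Bst1 were closest to Nos2, at 0.20 and 0.22, and Nos2 itself stayed under 5 CPM in every condition mean. Bst1 was at 75.9 and 79.4 CPM in Mir182ΔM/ΔM RANKL and at 12.9 to 18.6 CPM in the other 10 libraries. Nrp1 and 1810011H11Rik were closest to Hmox1, at 0.16 and 0.17, and Nrp1 went from 905 and 878 CPM in WT basal to 136 and 132 CPM in WT RANKL BMMs. These are descriptions over 6 means of 12 libraries that share their depth and scaling.

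**Figure D5:**
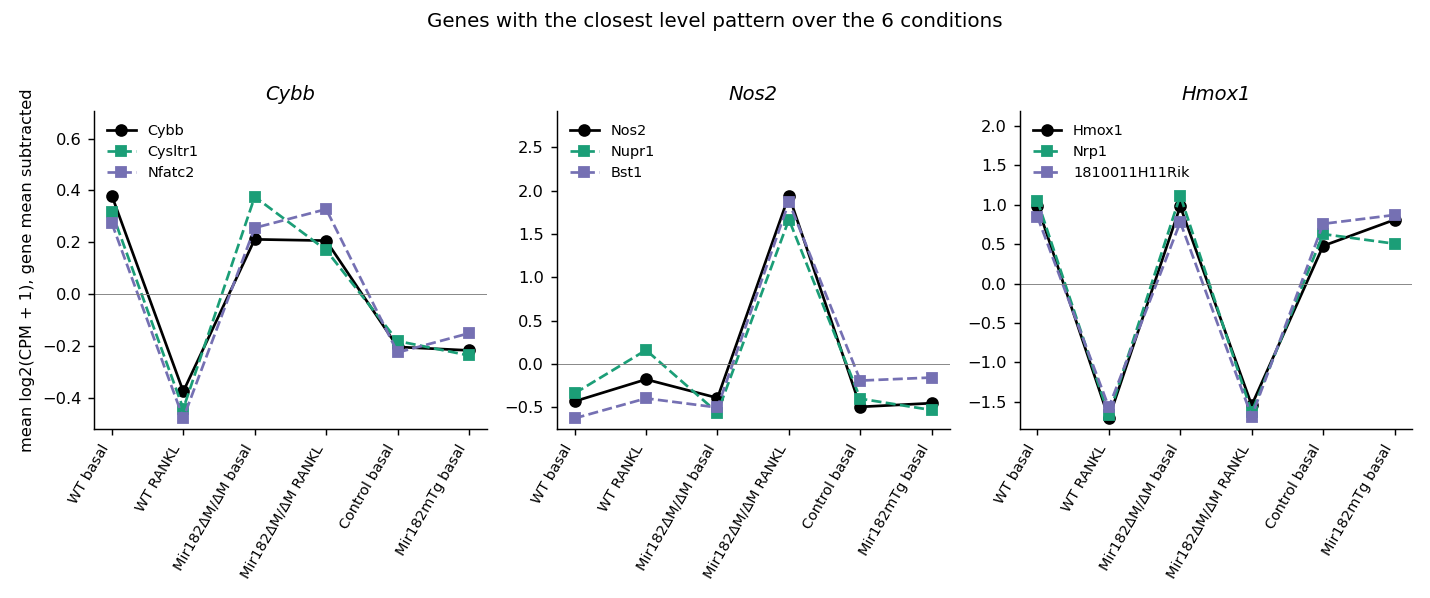
Mean log2(CPM + 1) of each condition, with the mean of the gene over the 6 conditions subtracted, for Cybb, Nos2 and Hmox1 (black, solid) and the 2 genes with the closest pattern to each (dashed). The lines of Hmox1, Nrp1 and 1810011H11Rik drop together in both RANKL conditions, and those of Nos2, Nupr1 and Bst1 peak in Mir182ΔM/ΔM RANKL.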

How the data were processed

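RNA-seq was done on 12 libraries from 6 conditions with 2 replicates each, which were assigned to groups by their labels. The members and gene lists were chosen with earlier results of these data known. The authors made poly-A+ libraries and aligned reads to mm10, per the labels with TopHat and Cufflinks for replicate 1 and with HISAT2, HTSeq and edgeR for replicate 2, which was labelled total RNA in place of polyA RNA. For the loss of function experiment the authors deposited CPM. Each column sums to 1000000 and 100% of its values are whole multiples of 1 read (tolerance 0.01 read), so whole reads were recovered for the count tests tried as alternatives. For the gain of function experiment the deposited files hold raw counts per gene, which were scaled to CPM for levels. The deposited RPKM of replicate 1 equals CPM divided by 1 fixed length per gene. Of 24421 genes listed, 27 with names turned into dates were left out of the tests.

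All 8 loss of function libraries entered 1 limma fit (version 3.58.1, with a trended prior variance) on log2(CPM + 1) in 4 groups. A gene was kept when 2 or more libraries reached 1 CPM, which left 11673. These differences understate the change of low genes, while folds are ratios of mean CPM. The 4 gain of function libraries were fitted by the quasi-likelihood method of edgeR 4.0.16, after TMM scaling and filterByExpr, on 12081 genes, with the SE taken as the absolute log2 fold change over the square root of F. All ran in R 4.3.3. P-values were adjusted by Benjamini-Hochberg over the genes of each comparison with a threshold of 0.05 and no fold cut. The scripts were tested on simulated data. Named genes were the 9 members, Rac1 and Hvcn1, the 2 genes of each list with the largest change in each direction among those called at 5 CPM or more in the higher group, and the 2 genes closest in pattern to Cybb, Nos2 and Hmox1. A further gene that the rule names is not reported here.

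Same-numbered samples deviated together: the differences between replicates correlated across genes at 0.69 to 0.76 over the 6 pairs of loss of function conditions and at 0.73 in the gain of function experiment. The number also marks the aligner and RNA label, and Rn45s was at 742 to 1176 CPM in replicate 1 and 9778 to 21273 CPM in replicate 2. The numbers were therefore taken to pair the samples. Replicates differed beyond counting noise, with a median squared difference of 5.21 to 6.95 times the counting variance over 8319 genes. Once the difference shared by all conditions was removed, the remaining variance was 1.39 times the counting variance in the 3999 genes with 500 to 2000 reads. P-values with the block rest on this small spread, which may be technical.

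Positions are from GENCODE vM21 (GRCm38) and count from 1. Sequences are from RefSeq, except the 3′ UTR stretch, which was read from the GENCODE vM21 transcript sequences. The alternatives were other filters, pseudocounts, scalings and tools, the replicate block, the compared samples alone, each library left out in turn and, added after the data were seen, the WT RANKL libraries left out.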

Additional observations from a re-analysis of the deposited data

Results flagged for a closer look

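For 5 of the 9 genes the response to RANKL in Mir182ΔM/ΔM BMMs differed from that in WT BMMs by the interaction test of limma. Of all genes tested, 7.46% were called positive and 17.2% negative in this interaction. On the log2(CPM + 1) scale the difference was 0.75 ± 0.10 (SE) for Cybb (adjusted p = 0.0016), 0.48 ± 0.07 for Ncf1 (adjusted p = 0.0035), 2.08 ± 0.15 for Nos2 (adjusted p = 0.00017), 0.60 ± 0.08 for Keap1 (adjusted p = 0.0024) and −1.81 ± 0.09 for Rac2 (adjusted p = 3.9e-05). Nos2 entered the test only through the Mir182ΔM/ΔM RANKL libraries, where it is high, and edgeR on the recovered reads did not call its interaction (adjusted p = 0.097). The WT RANKL libraries, on which all of these rest, also stood apart in Lyz2 (4117 to 4288 CPM against 22.5 to 43.96 CPM in the other 6 loss of function libraries) and in Ifi202b. The summed osteoclast markers differed between the genotypes after RANKL as well, with 9938 to 10274 CPM in WT and 3070 to 3079 CPM in Mir182ΔM/ΔM. The part of either in these results was not tested.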

How the results depend on the processing

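Of the fold changes of the 9 genes over all alternatives, 820 kept their direction and side of the threshold, 39 newly passed it, 3 no longer passed it and 28 changed sign. Of the counts of members called, 193 stayed within 1.5 times the reported count and 11 did not, and of the counts for the lists, 991 did and 233 did not. The replicate block, which pairs the samples by number, gave 1 member higher and 6 lower for Mir182ΔM/ΔM against WT at baseline (also with TMM factors), 4 lower after RANKL, 2 negative in the interaction (also with TMM factors), and 2 higher and 2 lower for Mir182mTg against Control. It changed no other count of members by over 1.5 times. With each library left out in turn, the members called higher with RANKL in Mir182ΔM/ΔM numbered 2 to 4, and those negative in the interaction 1 to 2, with 2 without WT basal replicate 2.

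None of the values that changed sign passed the threshold in the reported fits without the replicate block, though Nos2 with RANKL in WT did with no filter on low values (adjusted p = 0.042) and with a pseudocount of 0.1 (0.020). With the block 3 of them did: Nfe2l2 between the genotypes after RANKL (adjusted p = 0.0007), Cyba between the genotypes at baseline (0.0014) and Cyba in Mir182mTg (0.045). With the block and TMM factors the interaction of Nfe2l2 did too (0.00031). For Nos2 with RANKL in WT, quantile normalization gave −0.0583. For Nfe2l2 between the genotypes after RANKL, TMM factors gave 0.0142 (the same with the block), edgeR 0.0102 and DESeq2 0.00622, and for the interaction of Cyba they gave 0.0696 (the same with the block), 0.0682 and 0.0708. Leaving out each library in turn gave ranges across 0. These were −0.0323 to 0.0224 for Cybb with RANKL in Mir182ΔM/ΔM. Between the genotypes at baseline they were −0.276 to 0.00179 for Cyba, −0.0239 to 0.103 for Nos2 and −0.0451 to 0.0327 for Hmox1. After RANKL the range was −0.29 to 0.0207 for Nfe2l2. In the interaction it was −0.234 to 0.0432 for Cyba and −0.0993 to 0.211 for Nfe2l2. For Mir182mTg against Control it was −0.011 to 0.195 for Cyba, −0.0704 to 0.0833 for Rac2 and −0.139 to 0.0747 for Nfe2l2. The cause was not tested. With 1 library of a condition left out, the lone library is assumed to vary like the other conditions. At 24951280 to 33050619 reads, depth limits Nos2, whose basal libraries held 0 to 3 reads.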
